A study of Mus musculus with 4 samples.

Results

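The transforming growth factor beta (TGF-beta) pathway was described at 10 loci, Tgfb1, Tgfbr1, Tgfbr2, Smad2, Smad3, Smad4, Smad6, Smad7, Ski and Skil. Every one of the 10 genes had a peak of the transcription factor RUNX1 within 1500 bp of a transcription start of its own in each of the 2 RUNX1 libraries, and none had a peak of the histone mark H3K27me3 there. Of all protein-coding genes 46.8% (library labelled +DOX) and 43.4% (library labelled -DOX) had such a RUNX1 peak, and 40.2% had one in both lists. At 18979 of the 21911 protein-coding genes neither list had an H3K27me3 peak there. The loci were chosen by gene name, after RUNX1 peaks near them had been seen, and Skil was singled out because its start carried strong peaks with separate summits. Peaks were counted where the summit lay in the gene body or within 50 kb of it, which gave 60 RUNX1 sites of 24972 in all. The start of the gene itself was the nearest annotated start for 34 of the 60, and 26 were nearer to a neighbouring gene. Peak positions and strengths chose these loci, so their values are given as a description and without a test.

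The cells were mouse embryonic stem cells with a Tet-on construct for dnFOS, a dominant-negative form of FOS that stops JUN proteins from binding chromatin, and the cells behind each library carried it. After 2 days of blood differentiation the floating hematopoietic progenitors were taken, with doxycycline (DOX), which switches the peptide on, or without it. RUNX1 was profiled by ChIP-seq in 1 library per condition, and 2 more libraries are labelled H3K27me3. The depth of the libraries is unknown, as the peak lists hold no read counts. With no replicate, no difference between libraries can be set against a spread, and none was tested.

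The treatment of the RUNX1 libraries is recorded in opposite ways. The run name inside the peak list of the +DOX-labelled library reads untreated, and that of the -DOX-labelled library reads DOX. Libraries are therefore named by their labels, and every direction below turns around if the pair was exchanged. The H3K27me3 libraries carry a title and a treatment label that contradict each other, so they are told apart by title and assigned to no condition. Their labels name an H3K27me3 antibody, but the extraction protocol names anti-RUNX1. On the assembled chromosomes the RUNX1 lists held 21831 (labelled +DOX) and 18389 (labelled -DOX) peaks and the H3K27me3 lists 6356 (titled untreated) and 7233 (titled DOX).

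As background, TGF-beta ligands bind the receptor TGFBR2, which activates TGFBR1. The active receptor phosphorylates SMAD2 and SMAD3, which join SMAD4 and enter the nucleus, where Smad proteins bind short DNA words such as CAGAC beside other transcription factors. SMAD6 and SMAD7 block the signal at the receptors, SKI and its relative SKIL (also called SnoN) hold Smad complexes in a repressed state on DNA, and in blood TGF-beta is best known for restraining the division of stem and progenitor cells. RUNX proteins can bind Smads directly.

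Both RUNX1 lists had a summit at 30 of the 60 sites (50%, 95% Wilson interval 37.7 to 62.3), where the share among all sites was 56.8%. A summit was called only in the +DOX-labelled library at 14 (23.3%, 14.4 to 35.4, all sites 28.4%) and only in the -DOX-labelled library at 16 (26.7%, 17.1 to 39.0, all sites 14.8%). The balance of the single-list sites turned around with the threshold, to 13 (labelled +DOX) and 9 (labelled -DOX) when every peak had a -log10 q of 5 or more, and to 17 and 3 at 10 or more. The intervals cover counting error over sites, and neighbouring sites are not independent. Peak positions were in view when the loci were chosen, so these shares are a description. The strength of each peak is its -log10 q, ranked as a percentile within its own list so that 100 is the strongest. At 7 of the 10 genes both lists held a peak above percentile 85, as did 22% of all protein-coding genes, and Tgfbr2, Smad2 and Smad7 had none that strong in both lists. The peaks that passed at Tgfb1 and Smad6 were nearest to starts of other genes. Peak strengths were in view when the genes were chosen, so this count is a description. Ranked by fold enrichment it was 5 genes (without Tgfb1 and Skil), and among peaks with a -log10 q of at least 5 it was also 5 (without Tgfbr1 and Smad3). A gene of the 10 had a median of 5.5 sites, against 3 for all protein-coding genes, in windows of median 166.6 kb against 117.4 kb. Per 100 kb the medians were 4.09 and 1.84 sites. Every gene of the 10 had a RUNX1 peak of each library in its window, as had 75.7% (+DOX-labelled library) and 73.5% (-DOX-labelled library) of all protein-coding genes. Within 1500 bp of any annotated start lay 29 of the 60 sites (48.3%, 36.2 to 60.7, all sites 53.9%). Coordinates are mm10, and of the 10 genes Smad2 (chr18:76241580-76310963, plus strand), Smad4 (chr18:73639009-73703780, minus strand) and Smad7 (chr18:75367529-75395935, plus strand) lie on 1 chromosome.

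**Figure D1:**
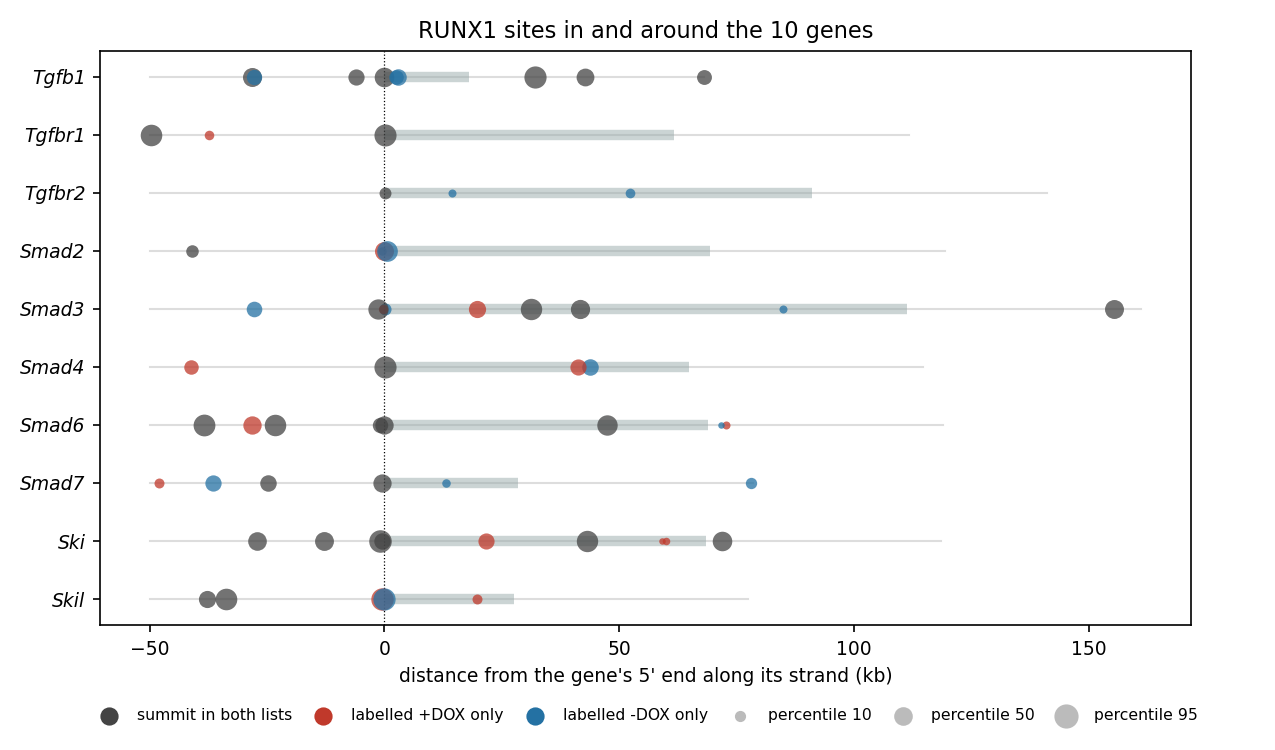
RUNX1 sites at the 10 genes by distance from the 5′ end of the gene (kb, along its strand). Thick bars are gene bodies, thin lines the 50 kb on each side, dark points sites with a summit in both lists, red points summits only in the +DOX-labelled library and blue points only in the -DOX-labelled library, with area by percentile within the list. A point stands at or near the 5′ end of each gene, and Tgfb1, Smad3 and Ski have 9 sites each. The last Tgfb1 point stands at a summit just past its 50 kb line, joined to summits inside it.

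At the edge of the 50 kb window, the outermost Tgfbr1 summit kept lay 49.7 kb from the gene (-log10 q 3.69, percentile 10.04), and the next one, 50.4 kb away and left out, had a -log10 q of 5.56 (percentile 26.4). Around Tgfb1 the outermost summit kept was 49.7 kb away (-log10 q 1.83, percentile 0.106). The next, 50.1 kb away (-log10 q 6.73, percentile 39.1), was not counted as a peak of the window. It was joined to the outermost site, however, and as the stronger summit it gave that site its values in the -DOX-labelled library. The summit of the +DOX-labelled library at this site, 429 bp from it, had percentile 37.4.

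Tgfb1, which encodes the founding ligand of the family, lies at chr7:25687002-25705077 on the plus strand. Around it were 9 sites, 6 in both lists and 3 in the -DOX-labelled library only. At its start each list had a moderate peak, with summits 12 and 22 bp inside the first exon, in the 5′ UTR. The -log10 q was 15.0 (fold enrichment 5.09, percentile 73.1) in the +DOX-labelled library and 7.01 (3.80, percentile 42.3) in the -DOX-labelled library. Another 2 weak sites within the gene, at 2.43 and 2.91 kb from its 5′ end, were called only in the -DOX-labelled library, at percentiles 37.0 and 49.8. They lay 509 and 988 bp from a further annotated start of Tgfb1. The strongest peaks of the window were not at Tgfb1 but 11 bp from a start of Ccdc97, at 32.0 kb, with a -log10 q of 47.8 (labelled +DOX, percentile 95.7) and 28.0 (labelled -DOX, percentile 89.3). The locus is dense in genes, and sites at the starts of Bckdha, Exosc5, B9d2 and Hnrnpul1 also fell in the window.

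Tgfbr1, the type I receptor kinase, lies at chr4:47353222-47414931 on the plus strand and had 3 sites. Its start carried a strong peak in both lists. The summit lay in the first coding exon, 100 bp from the 5′ end, in the +DOX-labelled library (-log10 q 43.4, fold 10.03, percentile 94.95), and 20 bp away from that in the -DOX-labelled library (26.1, fold 7.95, percentile 88.1). A second site stood 49.7 kb upstream, 205 bp from a start of Col15a1, a collagen gene, in an annotated intron of that gene. Of all 30 shared sites this one differed most in rank between the lists. It reached a -log10 q of 29.5 (fold 9.43, percentile 90.1) in the +DOX-labelled library and 3.69 (fold 3.81, percentile 10.04) in the -DOX-labelled library. The sequence under it is printed because this site holds both a PU.1 word (GAGGAAGT) and an AP-1 word (TGACTCA or TGAGTCA) and no RUNX word (TGTGGT or TGCGGT). AP-1 is the FOS and JUN family that dnFOS blocks, and PU.1 is a myeloid master regulator. Here and below, letters are the plus strand of the mouse reference GRCm38 (mm10), 5′ to 3′, and capitals mark matches to RUNX, AP-1, PU.1 or the Smad palindrome, on either strand.
Tgfbr1 upstream site, at Col15a1 (chr4:47303442-47303592): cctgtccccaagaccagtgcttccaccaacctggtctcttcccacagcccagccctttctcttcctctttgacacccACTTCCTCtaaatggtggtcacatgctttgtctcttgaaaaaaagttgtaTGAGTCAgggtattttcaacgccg
The PU.1 word began 2 bp and the AP-1 word 52 bp past the stronger summit. Such a match describes the letters in this window and is not a measured binding site.

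Tgfbr2, the type II receptor that binds the ligand, lies at chr9:116084293-116175360 on the minus strand and was the weakest of the 10 loci. Its start had a peak at percentile 22.5 (-log10 q 4.99, fold 4.36) in the +DOX-labelled library and at percentile 12.4 (3.85, fold 4.05) in the -DOX-labelled library, with summits 167 bp apart, the stronger in the 5′ UTR. Both of its other sites, intronic and 14.3 and 52.2 kb into the gene, were called only in the -DOX-labelled library, at percentiles 6.26 and 12.4.

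Smad2 encodes a receptor-activated Smad. Its start was covered by a wide peak in each list, 1286 bp in the +DOX-labelled library and 1115 bp in the -DOX-labelled library, with 1051 bp in common. The summits stood apart by 602 bp, 116 bp upstream of the 5′ end in the +DOX-labelled library (-log10 q 13.1, fold 5.56, percentile 68.3) and 486 bp downstream of it, in the 5′ UTR, in the -DOX-labelled library (20.1, fold 6.35, percentile 82.4). A weak extra peak 613 bp upstream (-log10 q 3.33, percentile 7.94) was called only in the -DOX-labelled library and overlapped the wide peak of the other library. The peaks of these 3 sites in 1 list each overlapped a peak of the other library.

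Smad3, the second receptor-activated Smad, lies at chr9:63646767-63757994 on the minus strand and had 9 sites, 4 of them in both lists. Its strongest was intronic, 31.2 kb from the 5′ end. Strength there was close in rank between the lists, with a -log10 q of 23.5 (fold 8.97, percentile 85.9) in the +DOX-labelled library and 26.7 (fold 9.70, percentile 88.5) in the -DOX-labelled library. A second intronic site, 41.7 kb into the gene, ranked 52.8 points higher in the +DOX-labelled library, with a -log10 q of 13.7 (fold 6.67, percentile 70.1) against 4.41 (fold 4.22, percentile 17.3). At the 5′ end itself the lists had separate weak peaks, 295 bp upstream in the +DOX-labelled library (percentile 10.9) and 207 bp downstream in the -DOX-labelled library (percentile 23.3). Both lists also had a peak 1368 bp upstream, with summits 1 bp apart, at percentile 78.9 (-log10 q 17.9) and 44.6 (7.40) respectively. The 3 sequences show that each of these shared sites held a RUNX word within reach of its summit.
Smad3 intron, strongest site (chr9:63726713-63726863): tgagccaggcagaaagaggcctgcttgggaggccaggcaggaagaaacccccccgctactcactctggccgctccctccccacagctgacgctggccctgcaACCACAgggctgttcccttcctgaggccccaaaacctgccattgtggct
Smad3 intron, 41.7 kb (chr9:63716211-63716361): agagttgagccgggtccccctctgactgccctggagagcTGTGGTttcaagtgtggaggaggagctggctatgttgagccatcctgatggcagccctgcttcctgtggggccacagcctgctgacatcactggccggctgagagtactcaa
Smad3, 1368 bp upstream (chr9:63759287-63759437): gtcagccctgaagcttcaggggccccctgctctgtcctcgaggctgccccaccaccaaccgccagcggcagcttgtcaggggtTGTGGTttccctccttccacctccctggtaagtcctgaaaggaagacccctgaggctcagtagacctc
The RUNX word began 27 bp after, 36 bp before and 8 bp after the summit in these sequences, in the order printed. The first also held the ETS word CAGGAAG on each strand, 38 bp before and 43 bp after the summit.

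Smad4 encodes the common partner of the activated Smads. Its start had a strong peak in both lists, at percentile 93.7 (-log10 q 38.7, fold 10.05) in the +DOX-labelled library and 95.3 (45.7, fold 11.5) in the -DOX-labelled library. The summits were 128 bp apart on either side of the 5′ end, and the window at the stronger one held a RUNX word. Inside the gene a site 43.8 kb from the 5′ end was called only in the -DOX-labelled library (-log10 q 8.21, percentile 50.04) and a site at 41.1 kb only in the +DOX-labelled library (8.10, percentile 47.4).

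Smad6, which encodes an inhibitory Smad, lies at chr9:63953076-64022059 on the minus strand and had 8 sites, 5 of them in both lists. The strongest stood upstream of the gene. At 38.3 kb upstream the -log10 q was 29.3 (fold 10.3, percentile 89.98) in the +DOX-labelled library and 33.8 (fold 10.01, percentile 92.2) in the -DOX-labelled library, and at 23.3 kb upstream it was 24.9 (percentile 87.0) and 28.4 (percentile 89.6). Neither window held a RUNX word, and both held CAGAC. Between them, 28.1 kb upstream, in an intron of 1110036E04Rik, a site with a -log10 q of 11.5 (fold 5.49, percentile 63.0) was called only in the +DOX-labelled library and overlapped no peak of the other list. The start of Smad6 had a moderate peak, at percentile 63.1 (-log10 q 11.5) and 47.9 (7.77), with summits 38 bp apart. This was the one site of the 60 whose window held the Smad palindrome GTCTAGAC, which is printed with its flanks because only 0.164% of all RUNX1 sites hold it.
Smad6 start (chr9:64022046-64022073): tcatatgccaGTCTAGACactttggcgg
The match spans the annotated 5′ end of Smad6, which is read on the minus strand. RefSeq promoters on GRCm38.p6 could be matched by symbol for 6 of the 10 genes, and the palindrome was in 70 of all 32851 promoters of this table (0.213%), that of Smad6 included.

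Smad7 encodes the other inhibitory Smad and is a feedback target of the pathway. Its proximal site, upstream of the 5′ end and within the overlapping noncoding gene Gm20544, had a summit 617 bp away in the +DOX-labelled library (-log10 q 11.4, fold 4.91, percentile 62.6), 104 bp from that of the -DOX-labelled library (8.53, fold 4.35, percentile 52.4). Of its 5 other sites the highest percentile was 49.8, at the shared site 24.9 kb upstream in the -DOX-labelled library, against 15.7 there in the +DOX-labelled library.

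Ski, a co-repressor of Smad complexes and a proto-oncogene, lies at chr4:155154075-155222592 on the minus strand and held the strongest peak of the whole group. Just under 1 kb upstream of its 5′ end, at 983 bp in the +DOX-labelled library and 993 bp in the -DOX-labelled library, the -log10 q was 77.4 (fold 12.9, percentile 98.5) and 95.8 (fold 14.3, percentile 99.1). A second, weaker summit lay 542 bp upstream in the +DOX-labelled library, at percentile 49.3, and at percentile 32.4 in the -DOX-labelled library. Within the gene an intronic site 43.1 kb from the 5′ end was in both lists, at percentile 79.1 (-log10 q 17.96) and 88.3 (26.5). Ski had no site called only in the -DOX-labelled library and 3 called only in the +DOX-labelled library, all intronic, at percentiles 1.64, 4.63 and 47.4. Its strongest upstream and intronic sequences are shown because each held a RUNX word near the summit.
Ski upstream site (chr4:155223510-155223660): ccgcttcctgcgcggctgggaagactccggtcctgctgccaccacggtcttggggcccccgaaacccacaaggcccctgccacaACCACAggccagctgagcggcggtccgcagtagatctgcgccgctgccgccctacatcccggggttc
Ski intron site (chr4:155179412-155179562): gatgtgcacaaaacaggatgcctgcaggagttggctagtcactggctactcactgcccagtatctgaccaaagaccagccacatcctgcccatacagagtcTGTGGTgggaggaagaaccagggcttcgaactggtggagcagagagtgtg
In the upstream sequence the RUNX word began 9 bp past the summit, and an ETS word lay 72 bp before it.

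Skil, the gene for the second co-repressor, lies at chr3:31095058-31122577 on the plus strand. Both libraries had a strong and very wide peak over its start, from 31093970 to 31095290 (1321 bp, width percentile 99.7) in the +DOX-labelled library and from 31093979 to 31095338 (1360 bp, width percentile 99.8) in the -DOX-labelled library. The peaks shared 1312 bp, which is 99.3% of the first and 96.5% of the second, and their ends differed by 9 and 48 bp. The summits nevertheless lay 516 bp apart. In the +DOX-labelled library the summit was 587 bp upstream of the 5′ end (-log10 q 65.3, fold 8.53, percentile 97.7), and in the -DOX-labelled library it was 71 bp upstream (51.5, fold 7.64, percentile 96.2). The peak list gives 1 summit for each, so heights elsewhere in the peak are not known. The 2 summit sequences are shown to compare their letters.
Skil summit, labelled +DOX (chr3:31094396-31094546): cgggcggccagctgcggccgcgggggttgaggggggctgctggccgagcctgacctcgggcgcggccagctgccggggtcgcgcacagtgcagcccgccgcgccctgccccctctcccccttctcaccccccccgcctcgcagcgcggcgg
Skil summit, labelled -DOX (chr3:31094912-31095057): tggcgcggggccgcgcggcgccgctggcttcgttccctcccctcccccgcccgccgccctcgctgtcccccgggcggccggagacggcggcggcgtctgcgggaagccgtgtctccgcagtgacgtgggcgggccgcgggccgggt
Both were rich in G and C, at 82.1% and 82.9% of the printed bases, and neither held a RUNX, AP-1 or PU.1 word. The printed part of the second ends where the 5′ UTR begins.

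A gap of this size was found at 2 of the 32 overlapping peak pairs at the 10 genes (6.25%), Skil and Smad2, where 1.23% of all 14583 overlapping pairs had summits at least 500 bp apart. Among all pairs with both peaks at least 1000 bp wide, which were 0.987% of the total, the share was 8.33%, or 12 of 144. The pairs at Skil and Smad2 are both of this wide kind. A counted pair at Tgfb1 had summits 496 bp apart, just under the limit of 500 bp. Where a peak overlapped several peaks of the other list, as at Tgfb1 and Smad2, not every pair was counted. Skil was singled out for its separate summits, so its place in this count follows from that choice. The shares are a description.

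**Figure D2:**
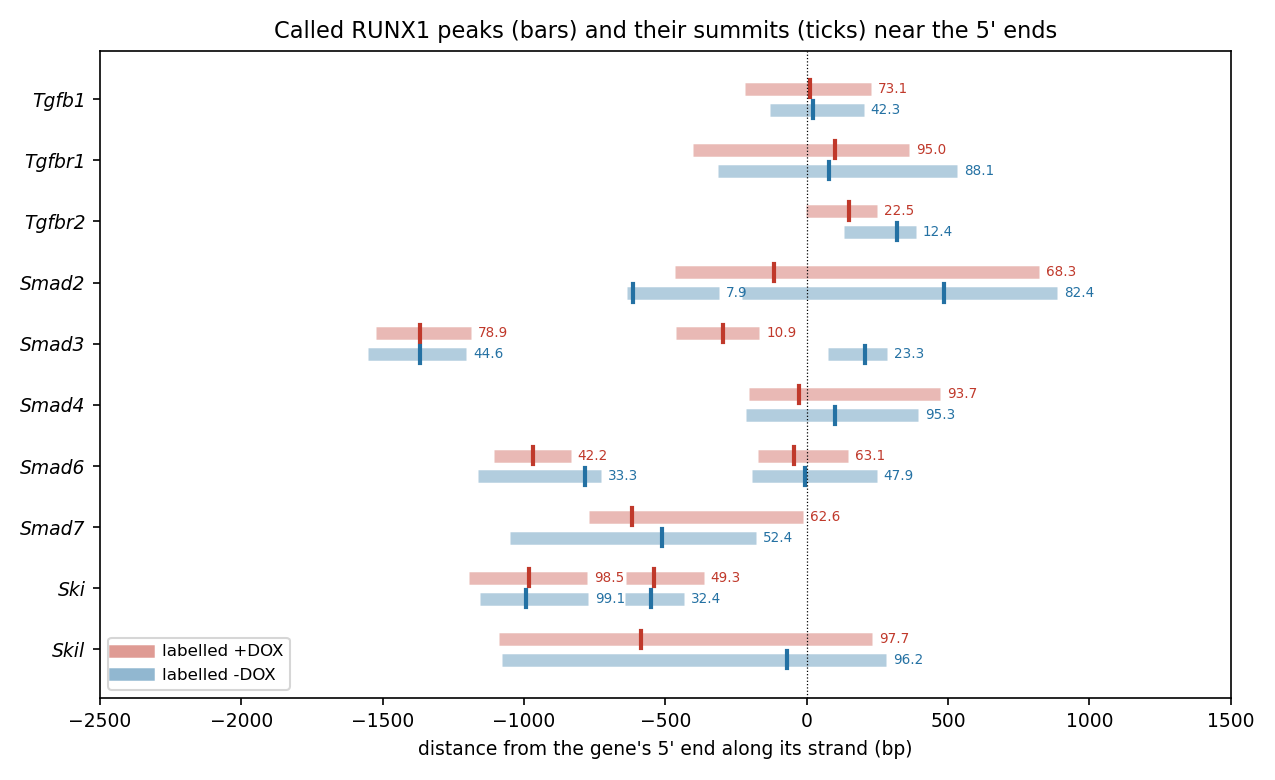
Called RUNX1 peaks (bars) and their summits (ticks) near the 5′ end of each gene, in bp along its strand. Red is the +DOX-labelled library, blue the -DOX-labelled library, and the number beside each bar is its percentile of -log10 q within its list. The bars at Skil nearly coincide while their ticks lie 516 bp apart, and at Smad2 the ticks of the main peaks lie 602 bp apart.

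Skil also had a pair of shared intergenic sites far upstream. At 33.7 kb upstream the -log10 q was 30.3 (fold 8.68, percentile 90.5) in the +DOX-labelled library and 5.95 (fold 4.08, percentile 32.8) in the -DOX-labelled library, a gap of 57.8 points. At 37.8 kb upstream it was 9.49 (percentile 54.5) and 6.72 (percentile 39.1). The sequence at 33.7 kb upstream is printed because an AP-1 word and a RUNX word stand side by side in it.
Skil upstream site, 33.7 kb (chr3:31061263-31061413): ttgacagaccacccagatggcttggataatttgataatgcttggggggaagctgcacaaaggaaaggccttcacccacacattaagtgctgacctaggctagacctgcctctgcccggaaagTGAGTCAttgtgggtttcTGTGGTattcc
The AP-1 word began 47 bp and the RUNX word 65 bp past the stronger summit.

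Across the 30 shared sites the peak ranked higher in the +DOX-labelled library at 21 (70.0%) and in the -DOX-labelled library at 9. Peak strengths were in view when the loci were chosen, and neighbouring sites are not independent. With 1 library per condition these values are a description. Among all shared sites 58% ranked higher in the +DOX-labelled library. The median difference was 12.8 percentile points at the 10 genes and 1.83 over all shared sites. Differences of at least 50 points toward the +DOX-labelled library were found at 3 sites, upstream of Tgfbr1 (80.1 points), upstream of Skil and in the Smad3 intron, where 2.55% of all shared sites had one. Toward the -DOX-labelled library there were 0 of 30 such differences, and 0.966% of all. The largest there was 42.0 points, at the site beyond the 3′ end of Ski, which had a -log10 q of 5.91 in the +DOX-labelled library and 14.4 in the -DOX-labelled library. Summits lay over 200 bp apart at 3 of the 30 (all shared sites 9.76%).

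**Figure D3:**
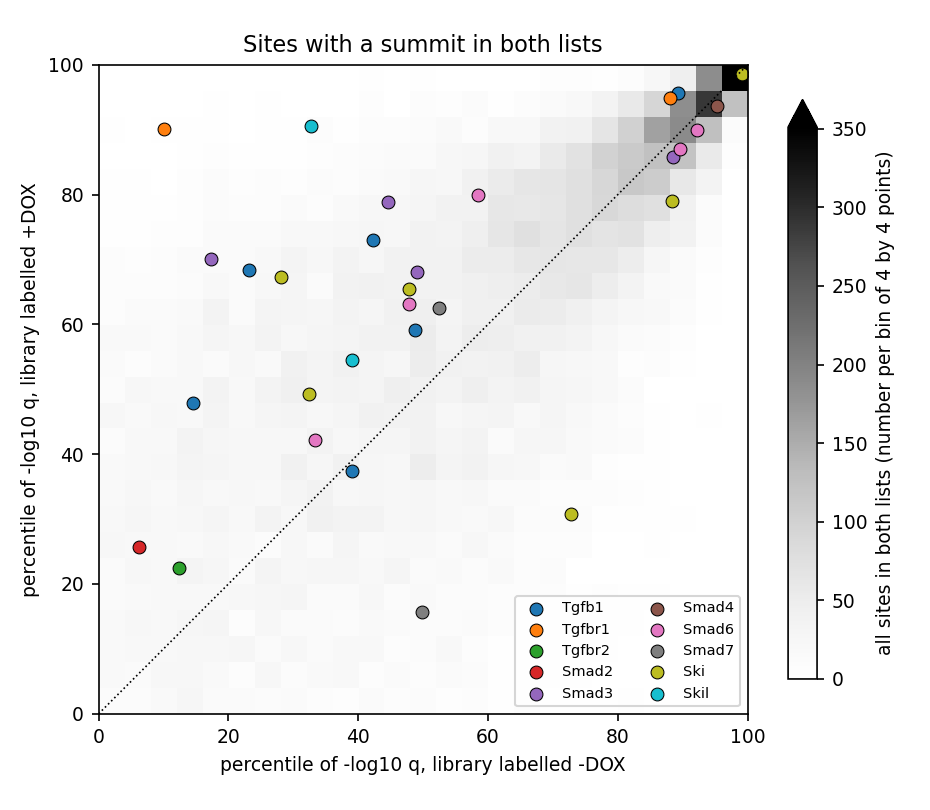
Percentile of -log10 q at the 30 shared sites of the 10 genes (coloured by gene) in the -DOX-labelled library (horizontal) and the +DOX-labelled library (vertical). Grey squares count all 14177 shared sites and the dotted line marks equal percentiles. Of the coloured points 21 lie above the line, and those of Tgfbr1 (10.04, 90.1) and Skil (32.8, 90.5) lie farthest from it.

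Sites called in 1 list were mostly weak. Of the 30, 5 had a -log10 q of at least 10, namely the Skil and Smad2 starts in each list and the Smad6 site at 28.1 kb. At the Skil and Smad2 starts both lists had a called peak, and these peaks overlapped. They count as single-list sites only because their summits lay too far apart to be joined. By library these were 3 of 14 (labelled +DOX, 21.4%) and 2 of 16 (labelled -DOX, 12.5%), where 13.3% and 8.13% of all such single-list sites were that strong. Skil was chosen for its strong peaks, so these shares are a description. The other 25 had a median percentile of 13.6, from 1.58 to 54.7. A peak of the other list overlapped 2 of the 14 (3.75% of all such sites) and 4 of the 16 (8.94% of all such sites). That makes 6 of the 30, the strong Skil and Smad2 sites among them. A peak near the threshold of its list can be missed in the other, so these calls are not measured changes in binding.

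What the sequences share was not used to choose the loci. The RUNX word was in the 200 bp at the summit of 20 of the 60 sites (33.3%, 22.7 to 45.9) and 37.4% of all sites. At the 31 sites over 1500 bp from every start (distal sites) it was in 13 (41.9%, 26.4 to 59.2, all distal sites 48.8%), and near starts in 7 of 29 (24.1%, 12.2 to 42.1, all such sites 27.8%). Each of these intervals holds the share of all sites. The ETS words CCGGAAG and CAGGAAG were in 28.3% (18.5 to 40.8, all sites 21.3%). The AP-1 word was in 6 of 60 (10%, 4.66 to 20.1, all sites 4.97%), which are the upstream sites of Skil and Tgfbr1, the Tgfbr2 start, a weak Smad2 peak and 2 sites upstream of Smad7. The GATA word AGATAA was in 8.33% (3.61 to 18.1, all sites 11.7%), the C/EBP word TTGCNNAA in 6.67% (2.62 to 15.9, all sites 6.46%), the PU.1 word in 5.0% (1.71 to 13.7, all sites 4.66%) and the TEAD word GGAATG in 15.0% (8.10 to 26.1, all sites 8.64%).

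The Smad word CAGAC, searched on both strands like the others, was in 34 of the 60 windows (56.7%, 44.1 to 68.4), against 38.4% of all sites. At distal sites it was in 23 of 31 (74.2%, 56.8 to 86.3) and in 43.3% of all distal sites, while near starts it was in 11 of 29 (37.9%, 22.7 to 56) against 34.1%. Windows shifted by 2000 bp from the 31 distal sites held it in 35.5% (21.1 to 53.1) and 48.4% (32.0 to 65.2). Windows shifted from all distal sites held it in 37.6% and 37.9%. With 31 windows on each side these intervals are wide. Leaving out any 1 of the 10 genes gave 72.0 to 76.9%. Within the middle range of GC content of the 31 sites (50.5 to 59.3%), 47.4% of 4522 distal sites held it. Examples are the upstream sites of Smad6, Skil and Ski and the introns of Ski, Smad3 and Tgfbr2. With 10 words at 2 kinds of site, 20 such shares were compared, and in 4 the share of all sites fell outside the interval of the 10 genes. Besides CAGAC at distal sites these were GGCGCC at distal sites (9.68%, 3.35 to 24.9, all distal 2.4%), AP-1 near starts (10.3%, 3.58 to 26.4, all such sites 2.63%) and the palindrome near starts (3.45%, 0.611 to 17.2, all such sites 0.126%), which rest on 3, 3 and 1 sites. The counterparts were 34.5% against 20.2% for GGCGCC near starts, 9.68% against 7.71% for AP-1 at distal sites, and 0 of 31 against 0.209% for the palindrome. CAGAC was singled out after its value was seen, a word of this length is common by chance, and sites of 1 gene are neighbours. The GC-rich Smad word GGCGCC was in 13 of 60 (21.7%, 13.1 to 33.6, all sites 12%).

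**Figure D4:**
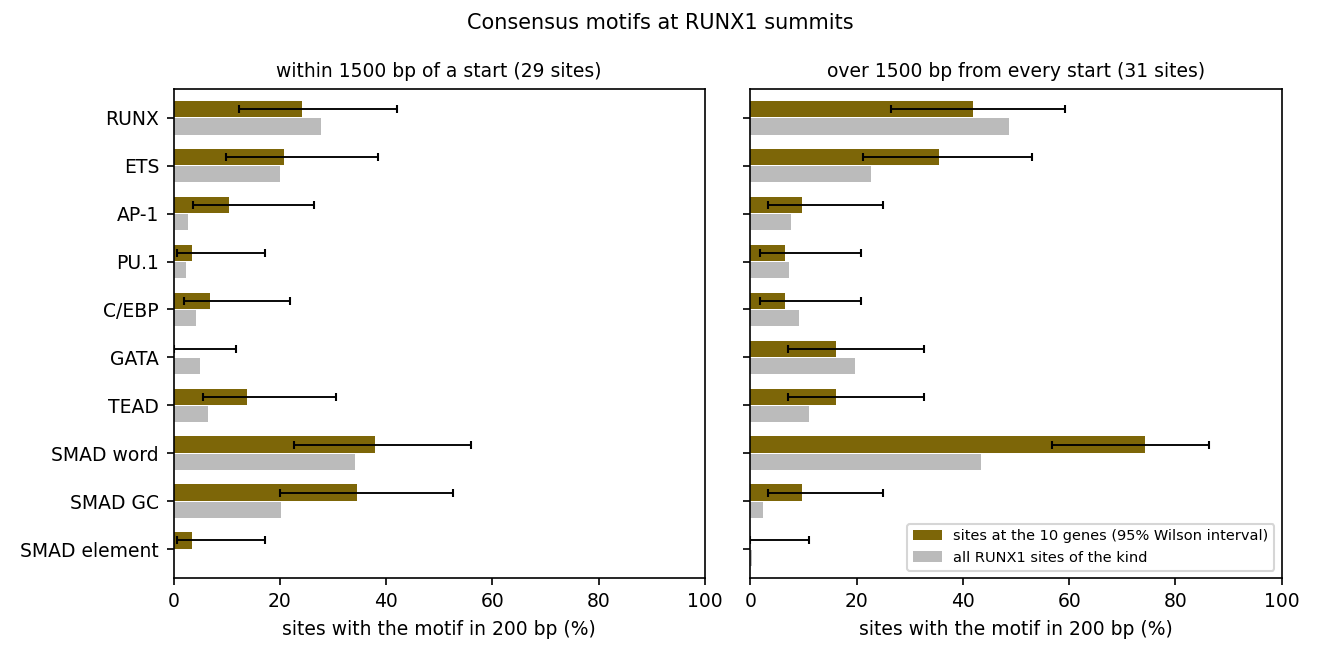
Share of RUNX1 sites whose 200 bp window held each motif (%), near starts on the left and distal on the right, at the 10 genes (brown, with 95% Wilson intervals) and over all RUNX1 sites (grey). SMAD word stands for the short Smad word, SMAD GC for the GC-rich word and SMAD element for the palindrome. The brown bar for SMAD word at distal sites reaches 74.2% against 43.3% in grey, while RUNX is at 41.9% and 48.8%.

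H3K27me3, the mark that Polycomb proteins lay over silent developmental genes, had no summit within 1500 bp of a start of any of the 10 genes in either library. Over all protein-coding genes, 11.7% (titled untreated) and 11.1% (titled DOX) had one, and 18979 of 21911 had one in neither list. For RUNX1, 40.2% of all protein-coding genes had a summit at a start in both lists, where the 10 genes were chosen with such peaks in view. In the whole windows there were 1 and 3 H3K27me3 peaks, all nearest to neighbouring genes, where 33.2% (titled untreated) and 35.2% (titled DOX) of all protein-coding genes had such a peak in their window. The library titled untreated had one at the start of Tmem91, 11.8 kb upstream of Tgfb1 (-log10 q 4.51), and the library titled DOX had 2 there (3.17 and 6.34). The last, in the library titled DOX, lay 58 bp from a start of Gm36033, beyond the 3′ end of Smad6 (-log10 q 5.10). The 8 other genes had none in their windows, as did 60.1% of all protein-coding genes. Of the 60 RUNX1 sites, 0 lay under an H3K27me3 peak of either library, where the 95% Wilson interval reaches up to 6.02% and 3 counts would be 5.0%, and over all sites the shares were 6.12% and 6.44%. The H3K27me3 lists hold narrow calls, with median widths of 180 bp (titled untreated) and 122 bp (titled DOX). A locus without a called peak is therefore not shown to lack the mark.

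Other genes of the TGF-beta and bone morphogenetic protein (BMP) pathways were counted from a list of 43. Of these, 22 (51.2%) had a RUNX1 summit at a start in both lists, and 13 and 12 had an H3K27me3 summit there in the libraries titled untreated and DOX. Over all protein-coding genes the shares were 40.2% (RUNX1 in both lists), 11.7% (H3K27me3, titled untreated) and 11.1% (titled DOX). Each role holds only 3 to 10 genes, and differences between roles were not tested. The receptors, such as Acvr1, Bmpr1a and Bmpr2, had RUNX1 in both lists at 7 of 10 starts and H3K27me3 at 0. Among the ligands and their carriers the counts went the other way, with RUNX1 in both lists at 1 of 10 starts, Gdf11, and H3K27me3 at 7 and 5. Inhibitors had RUNX1 at 7 of 9 starts and H3K27me3 at 4 in each library, partners such as the coactivators Ep300 and Crebbp RUNX1 at 4 of 5 and H3K27me3 at 0. The BMP-activated Smads had RUNX1 at 2 of 3 starts and H3K27me3 at 1, Smad9. Targets had RUNX1 at 1 of 6, Id3, which also had H3K27me3 in each library. Eng, an accessory receptor of endothelium and blood stem cells, had the most RUNX1 sites of the list (12, from 10 and 8 peaks), with none shared at a start. Inhba, Inhbb and Nog had 0 RUNX1 sites in their windows. Of all protein-coding genes 75.7% (labelled +DOX) and 73.5% (labelled -DOX) had a RUNX1 peak in theirs. Inhba also had 0 H3K27me3 peaks in each library. Inhbb, an activin subunit gene, had 3 and 5 H3K27me3 peaks, and Nog, which encodes the BMP antagonist noggin, 2 and 3. Ltbp4, a carrier of latent TGF-beta, had 5 and 3.

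**Figure D5:**
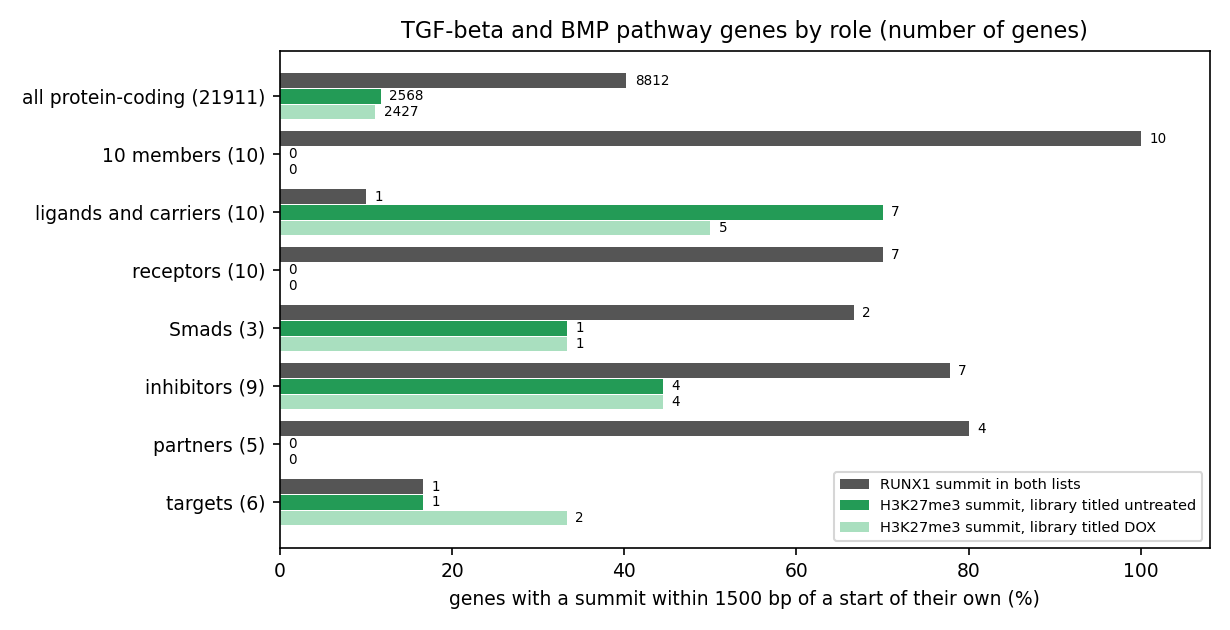
Share of genes (%) with a summit within 1500 bp of a start of their own, for RUNX1 in both lists (dark) and for H3K27me3 in the library titled untreated (green) and the library titled DOX (light green), with the number of genes beside each bar. Ligands and carriers are at 1 of 10 for RUNX1 and 7 of 10 and 5 of 10 for H3K27me3, receptors at 7 of 10 and 0. All protein-coding genes are at 40.2% for RUNX1 and 11.7% and 11.1% for H3K27me3.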

How the data were processed

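RUNX1 and H3K27me3 ChIP-seq peak lists (2 libraries each, mm10) were used. The authors aligned the reads and used MACS2 to call narrow peaks separately for each library (q-value 0.05). The processing notes given with the samples name Bowtie2 2.2.9 and MACS2 2.1.1, and no input control is named. For each peak the authors deposited a position and summit, a ratio (fold enrichment over local background), the -log10 of its p-value and q-value, and a score. The score and p-value were not used. The deposited lists were not compared with blacklist, repeat or DNase1 regions. Depth is unknown, since no counts are given.

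Groups followed the sample labels. Peaks on assembled chromosomes were assigned to the 10 genes with GENCODE vM21 in Python 3.11.15. Windows reaching 200 bp either way from a summit were joined into sites. Motifs were matched as exact words in 200 bp at the stronger summit, on GRCm38. The main shares by class, position, motif or H3K27me3 overlap carry 95% Wilson intervals. The steps were tested on simulated data. The genes, lists and motif words were chosen with earlier results of these data known. All 10 genes are named. For each, the site nearest the start, the site of highest percentile and every single-list site with -log10 q of at least 10 are given in full, and of the other pathway genes those with most and fewest peaks. Smad3, Ski and other sites beyond this rule were named after their values were seen. Alternatives changed the q threshold, gene window, merging, labels and motif window. No sequence is printed from chromosome 18 or from UTRs beyond 28 bases.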

Additional observations from a re-analysis of the deposited data

How the results depend on the processing

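No paired analysis was possible because each condition had 1 library, and no library could be left out. Of 140 alternative values for 43 results, 106 stayed within 1.5 times the reported count or within its interval or range, 34 moved and 0 reversed. Each value was scored by itself, so this score cannot show a change in the balance between 2 counts. The 106 include the exchange of the RUNX1 libraries, which only swaps the single-list counts and so says nothing about stability. With a -log10 q of at least 5, the H3K27me3 library titled untreated had 0 peaks and 9 RUNX1 sites stood in the list of the -DOX-labelled library alone, against 13 in that of the +DOX-labelled library. At a -log10 q of at least 10 there were 25 and 11 RUNX1 peaks (labelled +DOX, labelled -DOX), 0 H3K27me3 peaks in either library, 8 sites in both lists, 3 only in the -DOX-labelled library and 17 only in the +DOX-labelled library. The reported 16 and 14 thus turned around at both thresholds, and the cause was not tested. The gene body alone held 13 and 17 RUNX1 peaks, 0 H3K27me3 peaks in either library, and 8, 6 and 9 sites in both lists, labelled +DOX only and labelled -DOX only. With 20 kb of flank there were 29 and 30 RUNX1 peaks and 18 sites in both lists, and with 100 kb there were 22 sites only in the +DOX-labelled library. Counting only summits nearest to the member's own start left 24 and 25 RUNX1 peaks, 0 H3K27me3 peaks in either library, 14 sites in both lists and 9 only in the +DOX-labelled library. With 100 bp at the summit, motif shares were 21.7% (RUNX), 36.7% (CAGAC), 6.67% (GGCGCC), 3.33% (AP-1), 18.3% (ETS) and 1.67% (PU.1). A shorter window holds fewer words by construction. By fold enrichment, the peak with the highest -log10 q in the -DOX-labelled library was at percentile 22.2 for Tgfbr2 and 32.3 for Smad7. The highest fold percentile of any Smad7 peak in that library was 51.2. The count of genes with a peak above percentile 85 in both lists went from 7 to 5 by fold and to 5 among peaks with a -log10 q of at least 5. This count's alternatives and those for CAGAC at distal sites were chosen after seeing the data. At 100 bp the CAGAC share was 41.9%, against 24.8% of all distal sites, and at 300 bp 80.6% against 55.5%. The unknown depth of each list limits every count of peaks in 1 list only, and exchanging the RUNX1 libraries turns each direction around.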
